A study of Mus musculus with 12 samples.

Results

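Wt1 and Pax2, a pair of transcription factor genes of the developing kidney, were followed through 12 RNA sequencing libraries of sorted mouse kidney cells. The deposited table lists estimated fragments (sequenced cDNA pieces, not normalized) for 55418 transcript rows without gene names, so the genes were found by position on the mm9 build. Wt1 was taken from the window 104975000 to 105005000 of chromosome 2 and Pax2 from the window 44840000 to 44900000 of chromosome 19. Each window held 2 rows on the plus strand and 0 on the minus strand, so 4 rows of the table, summed to 2 of its 26699 loci, are described here. A locus is the sum of all rows that overlap on the same strand.

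The cells came from kidneys at postnatal day 0, carried an R26R-tdTomato reporter and were Six2-expressing cells isolated by flow cytometry. The sample titles give 4 groups, mutant high (2 libraries), control high (2), mutant low (4) and control low (4). Mutant is the titles' word, and the gene Eed stands in the series title, not in a sample label. The labels give no allele, Cre driver or control genotype, and leave unsaid what was high or low in the sorted populations. Nor do they say that each library is its own animal, so the spread behind each p-value is that among these libraries and could be technical alone. The description of every sample, mutant and control alike, begins with the letters WT1, which the labels do not explain and which was not used here.

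Wt1 encodes a zinc finger transcription factor that the early kidney mesenchyme needs in order to survive and form nephrons, and that is later kept at a high level in podocytes, the filtering cells of the glomerulus. Pax2 encodes a paired-box transcription factor of the intermediate mesoderm, the ureteric bud and the condensing nephron progenitors, and mice without it form no kidneys. Six2, which marks the sorted cells, keeps nephron progenitors from differentiating. Eed is a core subunit of the Polycomb repressive complex, which places a repressive methyl mark on histones and in mammals is found mainly at silent promoters rich in the dinucleotide CG.

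Because of that link to CG-rich promoters, the most CG-rich start region listed for Pax2 is shown. RefSeq's table for GRCm38.p6, a later build than the files', holds 3 windows for Pax2, each from 250 bases before to 50 after a transcription start, with 7, 23 and 30 CG dinucleotides. CG reads the same on both strands, and its occurrences in a window cannot overlap. The window with 30, chr19:44756656-44756955 on the plus strand, is printed with each CG in capitals. Of the 32851 windows in the table, 11.7% hold as many or more, and the median window holds 7. No row of the deposited table could be tied to one of these starts, and the libraries hold no measurement of the promoter itself.
Pax2: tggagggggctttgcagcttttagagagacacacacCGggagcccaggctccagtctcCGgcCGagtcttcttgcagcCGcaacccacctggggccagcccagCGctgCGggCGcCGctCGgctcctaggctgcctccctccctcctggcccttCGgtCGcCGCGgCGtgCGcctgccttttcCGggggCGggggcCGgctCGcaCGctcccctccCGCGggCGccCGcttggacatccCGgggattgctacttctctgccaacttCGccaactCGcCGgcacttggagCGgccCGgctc

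Total fragments ran from 4549011 to 12365078 per library, and 13749 loci passed the filter on low counts. Levels are given in CPM, the fragments of a locus scaled to a common library size with TMM factors. The 2 control high libraries had the highest shares of fragments on chromosome M (4.51% and 10.3%, against 0.494% to 1.96% in the other 10). With chromosome M left out, 13741 loci were tested, and the log2 fold change of Wt1 in mutant against control high cells was 1.96. The same 2 libraries had the lowest TMM factors (0.770 and 0.776). They also had the highest shares of fragments in the 100 most abundant loci (29.1% and 34.4%). Leaving out chromosome M does not address these differences, whose bearing on Wt1 was not tested.

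The Wt1 rows were uc008lko.1 (chromosome 2, 104966686 to 105013771) and uc008lkp.1, which starts further downstream at 104971059 and has the same end. The span of the locus, 47086 bases, equals the length of Wt1 in RefSeq's GRCm38.p6 gene table, and no other gene of chromosome 2 in that table has that length. The Pax2 rows, uc008hpz.1 and uc008hqa.1, had identical coordinates (chromosome 19, 44831884 to 44910517). Their span of 78634 bases matched no gene of chromosome 19 in that table, so the name Pax2 rests on position alone.

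Wt1 was higher in low than in high cells of both genotypes, and lowest in control high cells. Its level was 22.6 and 11.1 CPM in the mutant high libraries, against 5.41 and 3.12 CPM in the control high libraries. In low cells it was 63.7, 57.3, 35.2 and 58.1 CPM in mutant libraries and 50.8, 53.7, 70.9 and 95.5 CPM in control libraries. Every low library lay above every high library, both mutant high libraries lay above both control high libraries, and the low groups overlapped. Behind these levels stood 234 and 90 fragments in mutant high, 26 and 11 in control high, 317 to 716 in mutant low and 395 to 1164 in control low libraries.

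**Figure D1:**
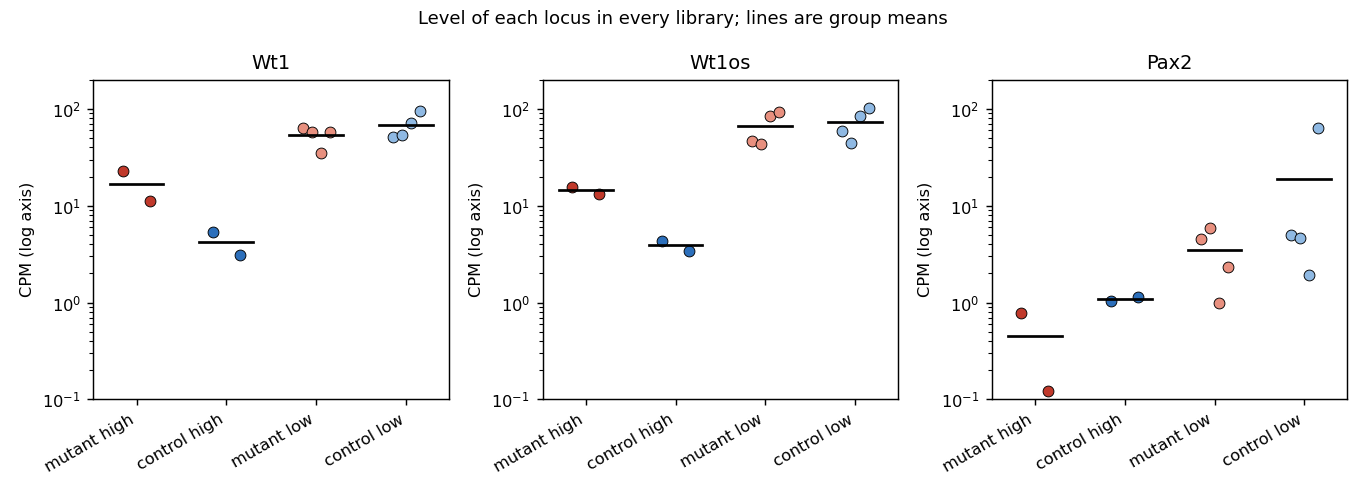
CPM on a log axis for Wt1, the neighbouring minus-strand locus Wt1os and Pax2 in mutant high, control high, mutant low and control low libraries; each point is 1 library and each line a group mean. Wt1 lies between 11.1 and 22.6 CPM in mutant high and at 5.41 CPM or less in control high libraries, and 1 control low library stands at 63.2 CPM for Pax2.

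In order of group means, Wt1 was highest in control low cells at 67.7 ± 20.6 CPM, then in mutant low cells at 53.6 ± 12.6 CPM (SD, n = 4 each). Mutant high cells followed at 16.8 ± 8.15 CPM, and the lowest mean was 4.26 ± 1.62 CPM in control high cells (SD, n = 2 each). Mutant low and control low cells did not differ beyond their spread, while mutant high against mutant low cells, and mutant high against control high cells, did. In bulk samples of this kind, fewer cells of a type that carries the RNA and less RNA per cell cannot be told apart.

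The titles set mutant against control cells within each population, and the series title names Eed's place in nephron differentiation and in the upkeep of progenitors. Within high cells, Wt1 rose in mutant cells by 1.96 on the log2 scale (SE 0.46, 95% interval 0.97 to 2.95, adjusted p = 0.00652 by the quasi-likelihood test of edgeR), a ratio of mean CPM of 3.95. Calls were common in this comparison, with 27.5% of all loci tested called, 16.3% higher and 11.2% lower. Each group holds 2 libraries, and the call was lost without mutant high replicate 1 (log2 fold change 1.35, edgeR adjusted p = 0.0689) and without control high replicate 2 (1.64, edgeR adjusted p = 0.0858). Over the 21 other settings tried the edgeR, limma or DESeq2 adjusted p ran from 0.00121 to 0.0858.

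Within low cells, Wt1 did not pass the test between mutant and control, at a log2 fold change of -0.34 (SE 0.28, 95% interval -0.95 to 0.27, edgeR adjusted p = 0.557). In that comparison 8.03% of loci were called, 4.82% higher and 3.21% lower. The low libraries carry description numbers from 4 to 11, odd in mutant and even in control samples. Among those numbered up to 7 the log2 fold change was 0.21 (edgeR adjusted p = 0.837), and among those numbered above 7 it was -0.81 (edgeR adjusted p = 0.129).

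The mutant effect on Wt1, meaning its log2 fold change in mutant against control cells, differed between the populations. It was more positive in high than in low cells by 2.30 on the log2 scale (SE 0.54, 95% interval 1.14 to 3.46, edgeR adjusted p = 0.0161), where 10.3% of loci were called, 7.29% in that direction and 3.05% in the other. The call held under 15 of 21 other settings. It was lost without mutant high replicate 1 (1.66, edgeR adjusted p = 0.0877) and without control high replicate 2 (1.94, edgeR adjusted p = 0.127). It was also lost with limma-voom (2.23, adjusted p = 0.0517), with each transcript as a feature (2.28, edgeR adjusted p = 0.0765) and with description numbers as a block (1.92, edgeR adjusted p = 0.0567). The libraries numbered up to 7, which leave 4 low libraries and 1 control high library, gave 1.42 (edgeR adjusted p = 0.201). Where 1 library is left in a group, it is assumed to vary like the other groups.

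High against low control cells gave the largest difference for Wt1 among the 4 comparisons between groups. In mutant kidneys Wt1 was lower in high than low cells by 3.18-fold in mean CPM (-1.67 on the log2 scale, SE 0.38, edgeR adjusted p = 0.00394), with 32.2% of loci called, 19.0% higher and 13.2% lower. Without mutant high replicate 2 it was -1.25 (edgeR adjusted p = 0.0668). In control kidneys it was lower in high cells by 15.9-fold (-3.96 on the log2 scale, SE 0.46, edgeR adjusted p = 5.70e-06), with 52.3% of loci called, 25.3% higher and 27.0% lower. The control difference kept its call under each of the 22 other settings, with log2 fold changes from -4.45 to -3.27.

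**Figure D2:**
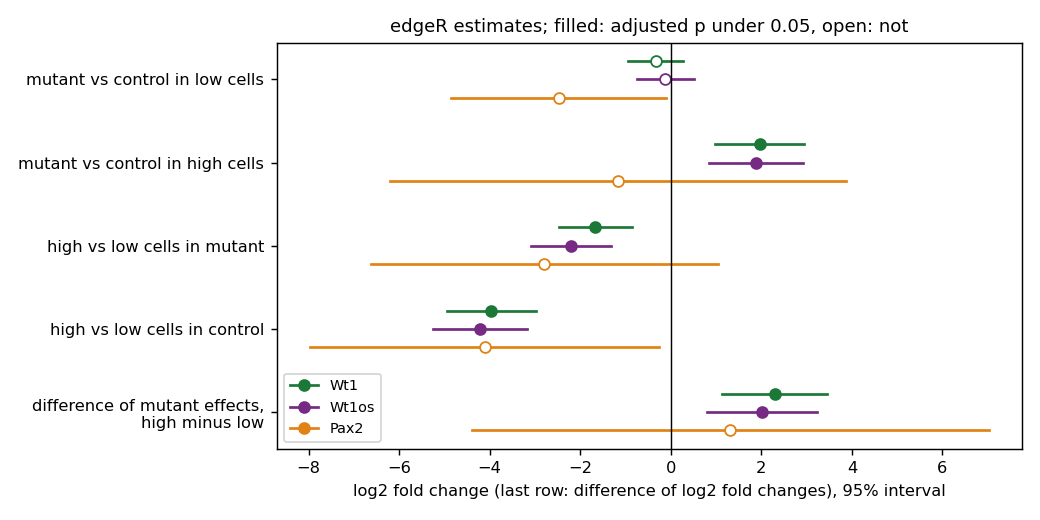
edgeR log2 fold changes with 95% intervals for Wt1, Wt1os and Pax2 in the 4 comparisons between groups and, in the last row, the difference of mutant effects between high and low cells; filled points have an adjusted p under 0.05. Wt1 and Wt1os are filled in every row but the first, and the Pax2 intervals are the widest.

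The 2 Wt1 rows start at different positions and share their end. The row with the downstream start, uc008lkp.1, held most of the fragments in each library. The other, uc008lko.1, took 13.1% and 14.6% of Wt1 fragments in mutant high and 16.9% and 0% in control high libraries. It took 20.4%, 9.30%, 8.28% and 11.0% in mutant low and 22.1%, 7.75%, 7.99% and 6.38% in control low libraries. The groups overlapped, and the library at 0% held only 11 fragments of Wt1 in all.

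The share of uc008lko.1 averaged 12.2% ± 5.56 in mutant low and 11.1% ± 7.42 in control low cells (SD, n = 4 each). The exact two-sided permutation test gave p = 0.600 (0.900 adjusted over 6 tests) for mutant against control in low cells, with a difference of 1.18 percentage points. High against low cells, permuted within genotype, differed by -0.53 percentage points (exact permutation p = 0.902, 0.902 adjusted). The split between the rows is the authors' estimate, and neither difference passed the test. The 6 tests include those of uc008lkp.1, which mirror those of uc008lko.1 and have the same exact permutation p. Start and end positions alone do not show whether the rows separate the forms of Wt1 that arise by splicing in its last zinc fingers. These forms are therefore not described.

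**Figure D3:**
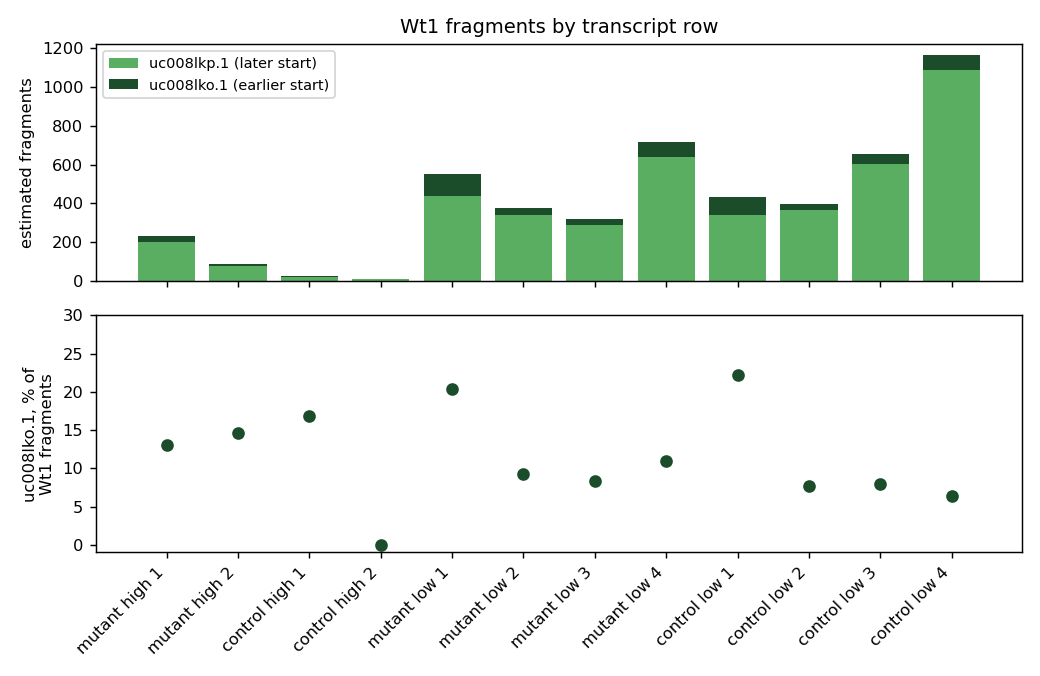
Upper panel, estimated Wt1 fragments in each library, split between the transcript rows uc008lkp.1 and uc008lko.1; lower panel, the share of uc008lko.1 in percent. The share runs from 0% to 22.1% with no separation of the groups.

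No minus-strand row overlapped the Wt1 window, but 1 ended 18 bases before the Wt1 start. This row, uc008lkn.1 (chromosome 2, 104916695 to 104966667), spans 49973 bases. Both that span and the gap of 18 bases equal those of Wt1os in RefSeq's GRCm38.p6 table, a long noncoding RNA transcribed away from the Wt1 promoter, and it is called Wt1os here. The table names no gene for the row itself. The rows do not overlap, but the libraries are not stated to keep strand, so any unlisted transcription across the start could not be assigned.

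Wt1os was high and low in the same groups as Wt1. It stood at 15.7 and 13.2 CPM in mutant high and 4.37 and 3.40 CPM in control high libraries, the last 2 resting on 21 and 12 fragments. In low cells it was 46.9, 43.4, 84.5 and 91.9 CPM in mutant and 59.2, 44.3, 84.6 and 102 CPM in control libraries. The high groups did not overlap each other or the low libraries, while the low groups overlapped, and in both genotypes the low libraries numbered above 7 (84.5 to 102 CPM) lay above those numbered up to 7 (43.4 to 59.2 CPM).

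Wt1os rose in mutant high against control high cells by 1.88 on the log2 scale (SE 0.49, edgeR adjusted p = 0.0111). In low cells the log2 fold change was -0.12 (SE 0.30, edgeR adjusted p = 0.859), and the difference of the mutant effects was 2.00 (SE 0.57, edgeR adjusted p = 0.0382). High against low cells gave -2.20 in mutant kidneys (edgeR adjusted p = 0.000844) and -4.21 in control kidneys (edgeR adjusted p = 5.52e-06). These tests of Wt1os were not repeated under the other settings. The order of the group means was that of Wt1. The levels did not match in every library, since mutant low replicate 3 had the lowest Wt1 level of the low libraries and one of the higher Wt1os levels.

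Pax2 had few estimated fragments in all libraries but 1. It stood at 0.773 and 0.123 CPM in mutant high and 1.04 and 1.13 CPM in control high libraries. In low cells it was 4.50, 5.94, 0.9999 and 2.35 CPM in mutant and 5.03, 4.62, 1.95 and 63.2 CPM in control libraries. The last value, control low replicate 4, rested on 770 fragments, while the other 11 libraries held 1 to 43 fragments each. Whether this difference lies in the estimates or in the cells was not tested. Low values here are therefore not read as a measure that Pax2 RNA was scarce in the cells.

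Control low replicate 4 was 12.6-fold above the next control low library and 10.6-fold above the highest of the other 11. The comparisons of Pax2 levels, and of the ratio to Wt1, are therefore given with and without it. Among 13749 loci tested, Pax2 was the only one with at least 100 fragments in that library and at least 8 times the level of every other library. Mutant low replicates 2 and 4 and control low replicate 3 also had 1 such locus each, and the remaining low libraries had 0. Against the other libraries of its own group, control low replicate 4 had 3 such loci, compared with 2 to 12 in each of the other 7 low libraries. Its Wt1 level, 95.5 CPM, was also the highest, followed by 70.9 CPM in control low replicate 3. These counts were made after the value had been seen, and its cause was not tested.

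Group means of Pax2 were 0.448 ± 0.460 CPM in mutant high cells, against 1.09 ± 0.0665 CPM in the control high libraries (SD, n = 2 each). They were 3.45 ± 2.20 CPM in mutant low and 18.7 ± 29.7 CPM in control low cells (SD, n = 4 each), or 3.86 ± 1.67 CPM in control low cells without replicate 4 (SD, n = 3). In order of means, control low led, followed by mutant low, control high and mutant high cells. In low cells the genotypes overlapped. In high cells both mutant libraries lay below both control libraries, a separation of groups of 2 that did not pass the test. Mutant low against control high cells was not compared.

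Mutant against control low cells gave Pax2 a value of -2.47 on the log2 scale (SE 1.06, edgeR adjusted p = 0.224), and without control low replicate 4 it was -0.18 (SE 0.55, edgeR adjusted p = 0.879). Over the 22 settings tried, the adjusted p ran from 0.120 to 0.962. In high cells the log2 fold change was -1.17 (SE 2.26, 95% interval -6.20 to 3.87, edgeR adjusted p = 0.740). Without control low replicate 4, which enters only the shared spread of that comparison, it was -1.17 with SE 1.05 (edgeR adjusted p = 0.438). Each high library held 1 to 8 fragments of Pax2. The difference of the mutant effects was 1.31 (SE 2.56, edgeR adjusted p = 0.795) and turned to -0.99 without control low replicate 4 (SE 1.17, edgeR adjusted p = 0.657).

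The mean level of Pax2 was lower in high than in low cells of both genotypes, and whether this passed the test depended on the setting. In mutant kidneys the log2 fold change was -2.80 (SE 1.72, edgeR adjusted p = 0.247). Leaving out control low replicate 4, which is not part of that comparison but enters the shared spread, gave the same -2.80 with SE 0.81 and an edgeR adjusted p of 0.0169, and a fit of the mutant libraries alone gave -2.75 (edgeR adjusted p = 0.0396). The adjusted p of the 22 settings ran from 0.00394 to 0.545. All 4 mutant low libraries lay above both mutant high libraries, although the lowest, at 0.9999 CPM, was close to the higher of the 2, at 0.773 CPM.

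In control kidneys the log2 fold change of Pax2 in high against low cells was -4.11 (SE 1.73, edgeR adjusted p = 0.0704). Without control low replicate 4 it was -1.81 (SE 0.83, edgeR adjusted p = 0.0857), and DESeq2 with all libraries gave -4.01 (DESeq2 adjusted p = 0.00902), within a range of 0.00902 to 0.292 over 22 settings. The direction was the same in each of the 22. All 4 control low libraries lay above both control high libraries.

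**Figure D4:**
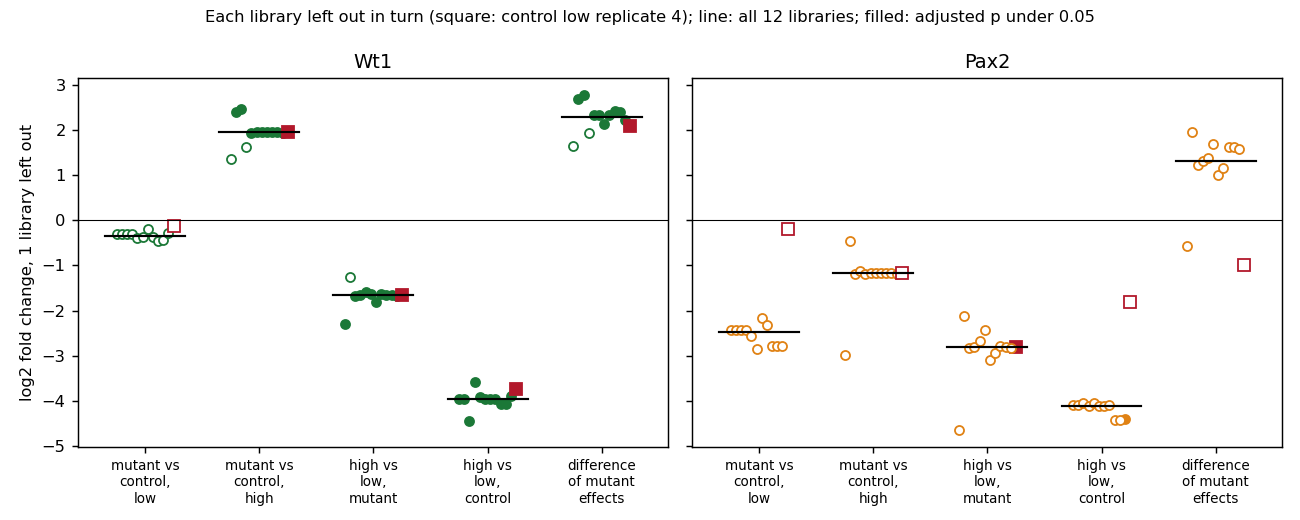
edgeR log2 fold changes of Wt1 (left) and Pax2 (right) in the 5 comparisons with each library left out in turn; filled symbols have an adjusted p under 0.05, squares mark the fit without control low replicate 4, and lines give the value with all 12 libraries. For Pax2 the square lies at -0.18 in the first comparison, where the line is at -2.47, while Wt1 lies between -0.46 and -0.13.

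Of the Pax2 rows, uc008hqa.1 took 99.8% to 100% of the fragments in each library. The other row, uc008hpz.1, was given less than 0.01 fragment in each library, and none in control low replicate 4. The share of uc008hqa.1 differed between high and low cells, permuted within genotype, by -0.0732 percentage points, which is a fraction of 1 fragment. The exact permutation p was 0.00444 (0.0267 adjusted over 6 tests). Because uc008hpz.1 held almost nothing, this share largely follows the total of Pax2 fragments, so its test does not bear on transcript use. Mutant against control low cells differed by -0.0068 percentage points (exact permutation p = 0.286, 0.857 adjusted). With identical coordinates, the table does not show how these transcripts differ.

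The ratio of Wt1 to Pax2 fragments within a library does not depend on the scaling between libraries. Its log2 value was 4.87 and 6.49 in mutant high and 2.38 and 1.46 in control high libraries. In low cells it was 3.82, 3.27, 5.14 and 4.63 in mutant and 3.34, 3.54, 5.19 and 0.60 in control libraries. The Pax2 fragments under the high ratios were only 8 and 1 in mutant and 5 and 4 in control libraries, with nothing added. Ratios in high cells are therefore imprecise. Both mutant high libraries lay above both control high libraries, and the low groups overlapped.

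Mutant against control libraries, permuted within population, differed by 2.41 in the log2 ratio (exact two-sided permutation p = 0.0762, 0.229 adjusted over 3 tests), and by 1.98 without control low replicate 4 (0.414 adjusted). In low cells alone the difference was 1.05 (exact permutation p = 0.457, 0.686 adjusted), and 0.19 without control low replicate 4. High against low cells, permuted within genotype, differed by 0.11 (exact permutation p = 0.924, 0.924 adjusted), and by -0.32 without control low replicate 4 (0.8286 adjusted). That value averages opposite differences, since the mean log2 ratio was 5.68 ± 1.15 in mutant high (SD, n = 2) against 4.21 ± 0.83 in mutant low cells (SD, n = 4), but 1.92 ± 0.65 in control high (SD, n = 2) against 3.16 ± 1.90 in control low cells (SD, n = 4). None of the 3 passed the threshold of 0.05. The ratio says nothing of which gene is more abundant per length, since the table gives no transcript lengths.

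The surroundings of the genes were read to see whether neighbouring loci were called as well. Within 500 kb of Wt1 lay 15 loci, of which 11 passed the filter. In mutant against control high cells, 3 of the 11 were called higher, Wt1os among them, and 2 lower, where 27.5% of all loci were called, and the median log2 fold change was 0.44 against 0.08 over all loci. In low cells 1 was called higher and 1 lower, where 8.03% of all loci were called. In control high against control low cells 2 were called higher and 5 lower, where 25.3% of all loci were called higher and 27.0% lower. The median log2 fold change there was -0.87 against -0.13 over all loci.

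On its downstream side the nearest tested locus to Wt1 (chromosome 2, 105064499 to 105220017, plus strand) ran the other way. Its start lies 97.8 kb from that of Wt1, and it stood at 10.6 ± 0.814 CPM in mutant high, 161 ± 91.5 CPM in control high (SD, n = 2 each), 2.70 ± 0.980 CPM in mutant low and 9.14 ± 3.86 CPM in control low cells (SD, n = 4 each). It fell in mutant cells of both populations, with log2 fold changes of -3.92 in high cells (edgeR adjusted p = 0.000228) and -1.78 in low cells (edgeR adjusted p = 0.00737). In control high against control low cells it was higher, at 4.14 (edgeR adjusted p = 1.23e-06). Near the edge of the region, a plus-strand locus at 105509053 to 105537226 rose in mutant low cells to 13.98 ± 5.43 CPM, against 0.204 ± 0.183 CPM in control low cells (SD, n = 4 each, edgeR adjusted p = 1.62e-05). It rose in high cells too, to 7.58 ± 0.0668 CPM in mutant high libraries (SD, n = 2), while the control high libraries held no fragment of it (edgeR adjusted p = 0.000491). That locus was chosen for mention after its values had been seen.

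Around Pax2, 14 of 19 loci within 500 kb passed the filter. In mutant against control high cells 2 were called higher and 0 lower, beside 27.5% called over all loci, and in low cells 1 was called higher and 1 lower, beside 8.03%. In control high against control low cells 1 was called higher and 7 lower, beside 25.3% called higher and 27.0% lower over all loci. The median log2 fold change was -0.97 against -0.13 over all loci. In mutant high against mutant low cells 1 was called lower and 0 higher, beside 32.2% over all loci. The nearest tested loci (chromosome 19, 44637344 to 44650764 before Pax2 and 45005609 to 45058277 after it, both on the plus strand) were not called between mutant and control cells in either population.

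**Figure D5:**
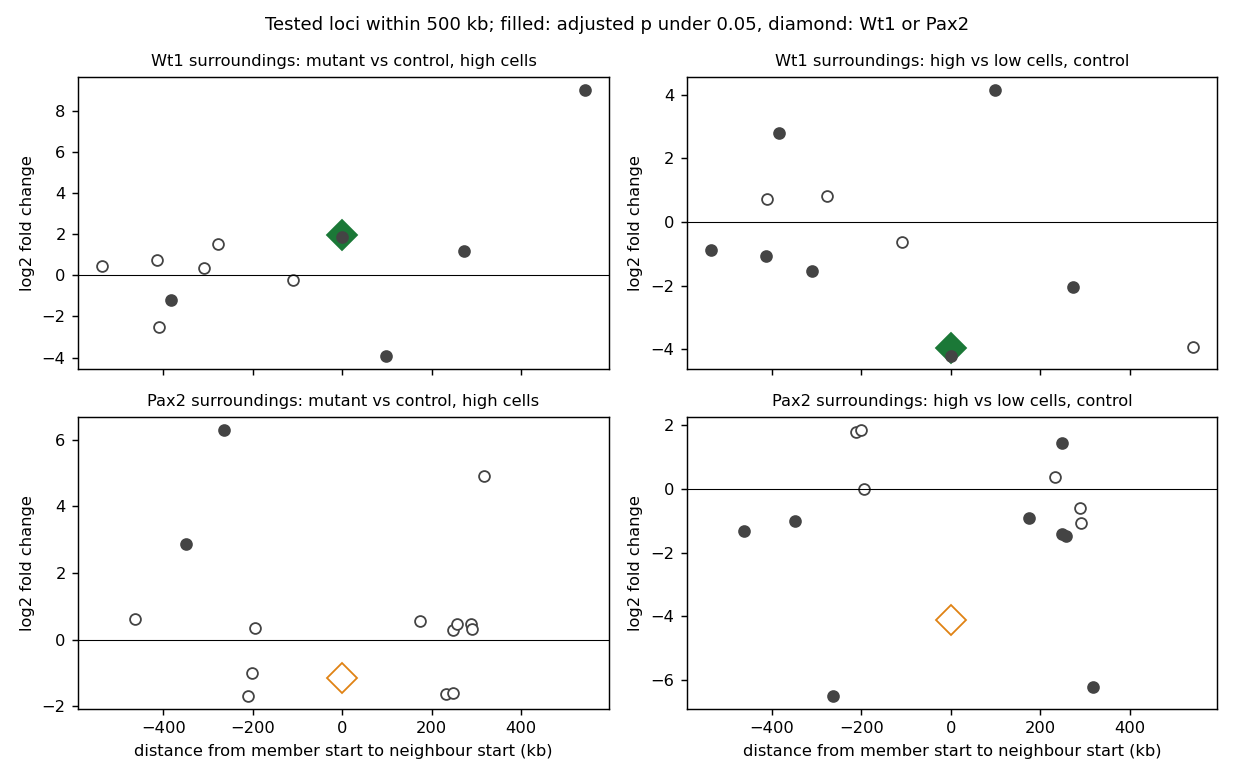
edgeR log2 fold changes of tested loci within 500 kb of Wt1 (upper row) and Pax2 (lower row), against the distance from the member's start to the neighbour's start in kb; left, mutant against control high cells, and right, control high against control low cells. Diamonds are Wt1 and Pax2, the point on the Wt1 diamond is Wt1os, filled symbols have an adjusted p under 0.05, and fitted values of loci without fragments in a group depend on the prior count.

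Likeness of pattern was measured as the root mean square difference of log2 CPM over the 12 libraries, after each locus was centred on its own mean, among 10058 loci with a mean of at least 5 CPM. The 5 loci most like Wt1 differed from it by 0.26 to 0.38. The nearest (chromosome 13, 31898515 to 31902504, plus strand) averaged 176 CPM in mutant high, 62.2 CPM in control high, 510 CPM in mutant low and 649 CPM in control low cells. The next (chromosome 5, 111308822 to 111718799, plus strand) averaged 42.5, 10.8, 114 and 147 CPM in the same groups. Wt1os, at a difference of 0.49, came in place 67 of 10057.

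Pax2 had no such close likeness, and its 5 nearest loci differed from it by 1.12 to 1.22. Without control low replicate 4, an alternative added after seeing the data, the nearest was at 0.40 (chromosome 10, 79611035 to 79621112, plus strand), with means of 1.95 CPM in mutant high, 3.51 CPM in control high, 7.56 CPM in mutant low and 9.46 CPM in control low cells, the last over all 4 libraries. That locus held 7.14 CPM in control low replicate 4, close to its group mean.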

How the data were processed

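The authors deposited estimated counts: fragments for each transcript row, without normalization, in 1 column per library. The name of the table points to CuffDiff2, while Bowtie2, HTSeq, DESeq2 and mm9 are listed, with neither role nor version, in the submitters' processing notes. Use of strand and of fragments with several alignments is not given in the sources used here. Per the labels' protocols, a low-input SMART-Seq kit gave the cDNA.

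Of 55418 rows, 303 lacked a position and summed to 0 fragments. Starts were read as counting from 0, because 4053 spans of 10 kb or more then equal a RefSeq gene length on the same chromosome, against 820 if they count from 1; printed starts count from 1. Rows overlapping on 1 strand were summed to 26699 loci and rounded, since 99.6% to 99.9% of sums, but 68.3% to 75.4% of rows, were whole within 0.01. These shares include values of 0.

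All 12 libraries entered 1 fit of 4 groups with edgeR 4.0.16 in R 4.3.3 (TMM, filterByExpr, robust quasi-likelihood F test, no covariate), with limma 3.58.1 and DESeq2 1.42.0 as alternatives, Benjamini-Hochberg adjustment over 13749 loci and a two-sided threshold of 0.05. SE is the absolute log2 fold change over the square root of F. The members and tests were chosen with earlier results of these data known. The genes named are the rows of the windows, their nearest tested loci and those most alike. Lists of other kidney genes and cell type markers were not used, because the file does not pair rows with names, so neither the sorted cell type nor the targeted gene was checked. The design foresaw whole counts, and rounded locus sums were used instead. Each high library shares its description number (5 to 8) with a low library of the same genotype, which the labels do not explain. Libraries with the same title number correlated in their deviations from group means by -0.15 to 0.47. Those with the same description number correlated by -0.08 to 0.22. Neither number was taken as a pairing, and the main fit treats high and low libraries as independent. With 4 pairs of 1 description number, and high groups of 2 whose deviations mirror each other, these correlations cannot exclude a pairing. Mutant low with control low libraries, both from replicates 1 and 2 or both from 3 and 4, correlated by 0.07 to 0.47. Replicates 1 and 2 of either genotype with 3 and 4 of the other correlated by -0.42 to -0.07. Deviations within a group cancel, so these ranges are not independent. The main fit holds no term for this split, and its cause was not tested.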

Additional observations from a re-analysis of the deposited data

Results flagged for a closer look

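The cutoff used for a value far from the others is passed by chance in about 1 in 20 groups of 4, and 10 groups were examined. Pax2 in control low cells had 1 library, replicate 4, far from the others at 63.2 CPM.

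The share of Wt1 fragments given to uc008lko.1 in control low cells had 1 library, replicate 1, far from the others at 22.1%.

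Between the populations, the log2 fold change of mutant against control cells differed by 2.30 for Wt1 and by 2.00 for Wt1os. Both passed the threshold of edgeR's test of the difference (adjusted p = 0.0161 and 0.0382). The other settings were not run for Wt1os, so its call was not checked in this way. For Wt1 the call held under 15 of 21 other settings, with adjusted p from 0.00353 to 0.201.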

How the results depend on the processing

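Lower Wt1 in high than low control cells was called under each of 22 settings. The difference of mutant effects for Wt1 missed the threshold with limma-voom (2.23, adjusted p = 0.0517), with each transcript as a feature (2.28, edgeR adjusted p = 0.0765), with description numbers as a replicate block in 8 libraries (1.92, edgeR adjusted p = 0.0567) and in libraries numbered up to 7 (1.42). With title numbers as the replicate block it was 2.28. Libraries numbered up to 7, a setting chosen after seeing the data, turned the mutant effect in low cells to 0.21 for Wt1 and 0.10 for Pax2. The cause was not tested.

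Pax2 passed the threshold for high against low mutant cells in a fit of the 2 groups compared (-2.75), with description numbers as a replicate block (-3.47) and in libraries numbered up to 7 (-3.41), and for high against low control cells with DESeq2 (-4.01). Its difference of mutant effects turned to -0.0218 with limma-voom, -1.93 with description numbers as a block and -1.21 in libraries numbered up to 7.

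Leaving out each library gave Wt1 ranges of -0.46 to -0.13 (mutant against control, low cells), 1.35 to 2.47 (high cells), -2.29 to -1.25 (high against low, mutant), -4.45 to -3.59 (control) and 1.66 to 2.77 (difference of effects). For Pax2 they were -2.85 to -0.18, -2.98 to -0.46, -4.65 to -2.12, -4.43 to -1.81 and -0.99 to 1.96. The call for high against low control cells was gained without control low replicate 3 (-4.41, edgeR adjusted p = 0.0291). The share of uc008lko.1 ranged from -1.55 to 4.87 percentage points (mutant against control, low cells) and from -4.74 to 3.69 (high against low). The share of uc008hqa.1 ranged from -0.124 to -0.0221 points, and the adjusted exact permutation p was 0.08 without any 1 high library, the smallest that the remaining arrangements allow. The log2 ratio of Wt1 to Pax2 ranged from -0.32 to 0.52 (high against low).

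Over all loci, calls numbered 1104 (mutant against control, low), 3780 (high), 4427 (high against low, mutant), 7197 (control) and 1422 (difference of effects). They were 427, 2012, 2713, 6464 and 544 with each transcript as a feature, 467 and 407 for the first and last in libraries numbered up to 7, and 942 for the last with description numbers as a block. Without 1 library the second was 2450 (control high replicate 1), 1996 (control high replicate 2) and 2164 (mutant high replicate 2), the last was 835, 572 and 663, and the third was 2883 without mutant high replicate 1. Pax2 rests on 1 to 8 fragments in each high library.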
